A study of Mus musculus with 15 samples.

Results

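Liver RNA of mice injected with the hormone GDF15 was set against liver RNA of mice that were not given the hormone but received as little food as the injected mice ate. The comparison used the 10 libraries named GDF15 and PairFed, 5 of each, out of 15 libraries in the study, and covered every gene in the count table. The remaining 5 libraries, named Vehicle, entered the model and served as a reference level. All animals were wild type (WT), had been put on a MASH diet and kept at about 29°C from 8 weeks of age, and were single-housed after randomization to groups matched on body weight and composition. MASH, metabolic dysfunction-associated steatohepatitis, is the inflamed form of fatty liver disease. GDF15 animals received recombinant GDF15 under the skin once daily at 1 nmol/kg in the morning, 1 to 2 h after lights on. PairFed animals were given, each day, the food weight that the GDF15 group had taken the day before. The length of treatment, the time of tissue collection, the sex of the animals and whether PairFed animals were injected are not stated in the labels. Library numbers follow column order and are mere names, and nothing beyond the labels says that each came from a separate animal. The p-values therefore measure the spread between these libraries.

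GDF15 is a stress-induced hormone of the transforming growth factor-β family. Its receptor, GFRAL, sits in the hindbrain, and its best known effect is to lower food intake. Less food by itself changes liver metabolism, and pair feeding is the usual control for it: a gene that differs between GDF15 and PairFed livers differs at matched intake. Many liver genes of amino acid breakdown and glucose production are also targets of the glucocorticoid receptor, the nuclear receptor for the adrenal hormone corticosterone.

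In the GDF15 livers, 7 of 34 genes induced by glucocorticoids and 7 of 42 genes of the urea cycle and amino acid breakdown rose against the PairFed livers, and no gene of either list fell. Sds and Tdo2 are in both lists and are counted in each. Markers of inflammation, fibrosis and immune cells gave almost no calls. With 0.782% of all tested genes called, lists this short would hold few calls in any case. Of the 12274 genes tested with edgeR's quasi-likelihood test, 96 (0.782%) differed at an adjusted p below 0.05. Of these, 69 (0.562% of the tested genes) rose and 27 (0.22%) fell. The changes of 17 genes, 13 higher and 4 lower, reached 2-fold, and the largest rise was 2.8-fold (Slc2a4). In 83 of the 96 genes the GDF15 values did not overlap the PairFed values. Over all tested genes this held for 351 (2.86%), 161 of them higher (1.31%) and 190 lower (1.55%). At an unadjusted p below 0.05 there were 1636 genes (13.3%), with 7.01% of the tested genes higher and 6.31% lower. DESeq2 called 245 genes (2.14% of those it tested), among them all 96, and limma-voom 75 (0.611%), of which 74 were among the 96. With the same libraries as reference, GDF15 differed from Vehicle in 356 genes (2.9%) and PairFed from Vehicle in 35 (0.285%). These comparisons share libraries with the present one. The median log2 fold change (GDF15 minus PairFed) over all tested genes was 0.00071, so fold changes below are read against a centre near 0.

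**Figure D1:**
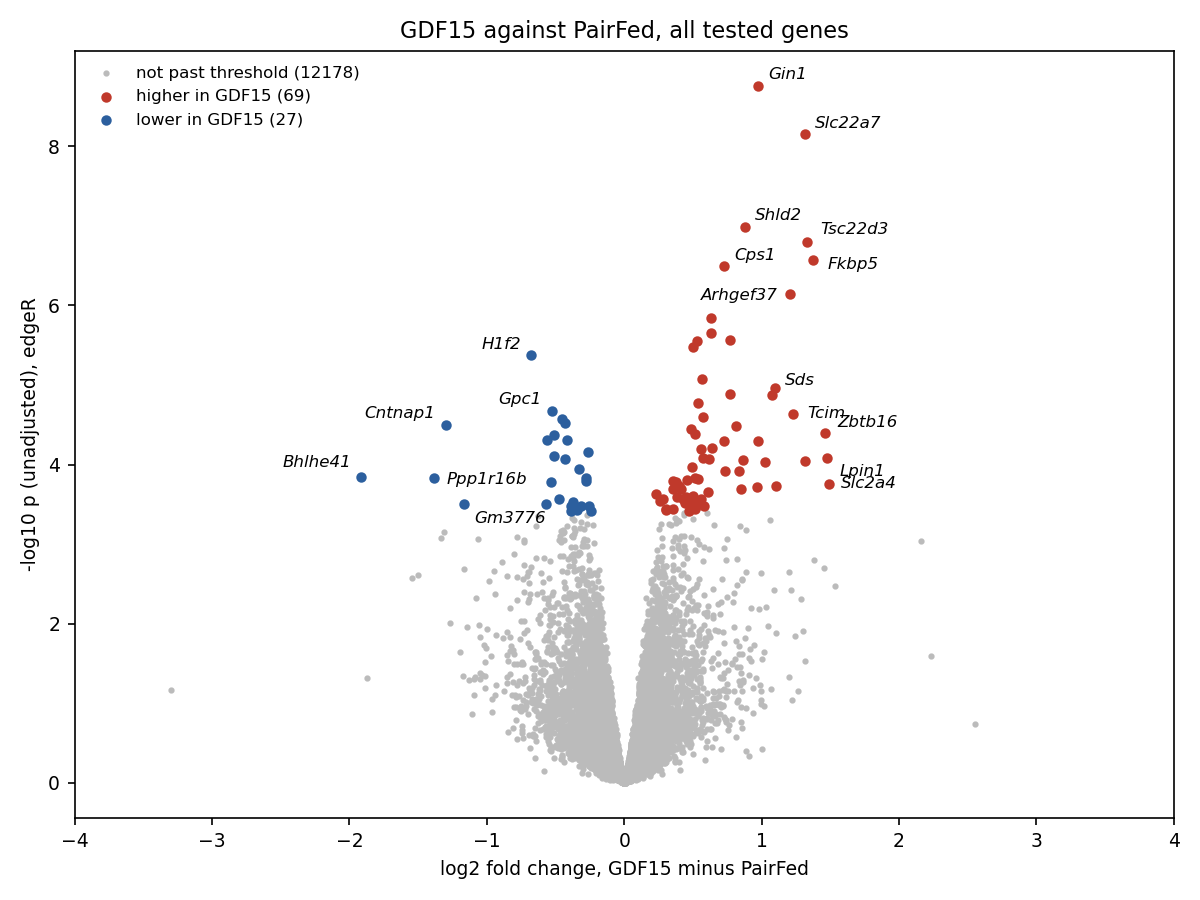
Each point is 1 of 12274 tested genes, with the log2 fold change of GDF15 minus PairFed on the horizontal axis and the negative log10 of the unadjusted edgeR p on the vertical axis. Red points (69) are higher in GDF15 and blue points (27) lower at an adjusted p below 0.05, and more red than blue points lie past 1 log2 unit.

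Depth was partly tied to group. GDF15 libraries held 8551557 to 10914914 counts and PairFed libraries 10133289 to 12933324, and the largest gap in total count over all 15 libraries left 4 of the 5 PairFed libraries, 1 Vehicle library and none of the GDF15 libraries above it. When a term for these 5 deeper libraries was added, 9 genes passed the threshold (8 higher, 1 lower), and 7 of the 96 were among them: Arrdc2, Fkbp5, Gin1, Mast3, Ppfibp1, Prodh and Slc22a7. All 96 kept their direction in that fit. The term is set by PairFed 1 and Vehicle 4, the libraries whose depth class differed from the rest of their group. Values with the depth term therefore rest largely on them. When all libraries were instead thinned at random to the smallest total count, 90 genes passed (65 higher, 25 lower), 83 of the 96 were among them, and all 96 kept their direction. The 10 shallower libraries alone hold 1 PairFed library, so their fit rests on that library and is given for its values only: all 96 genes kept their direction, with log2 fold changes of 1.42 for Fkbp5 and 1.55 for Slc22a7 (1.37 and 1.31 with all libraries). The count also moved with single libraries, from 21 genes without PairFed 4 to 171 without PairFed 1, and 20 of the 96 genes passed the threshold whichever of the 15 libraries was left out.

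The tissue check by marker genes showed liver in every library. Markers of hepatocytes, the main cell type of the liver, summed to 152101 to 192255 CPM (a gene's count scaled to a common library total, with TMM factors from edgeR) in GDF15 and to 144569 to 174051 CPM in PairFed, ranges that overlapped. Of 16 markers of pancreas, fat, muscle and other neighbouring tissues, 13 were not in the table, and the other 3 summed to 18.7 to 28.3 CPM in GDF15 and to 21.1 to 27.6 CPM in PairFed. Hepatic Gdf15 mRNA is no test of the labels, since the hormone was given as a protein. It stood at 259, 134, 103, 91.7 and 96 CPM in GDF15 1 to 5 and at 149.7, 24.5, 63.7, 80.1 and 90.4 CPM in PairFed 1 to 5 (log2 fold change 0.74 ± 0.50 SE, adjusted p = 0.571). These ranges overlapped. In whole liver, fewer cells of a type and less RNA per cell cannot be told apart.

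Of 34 glucocorticoid-induced genes tested, 7 rose and 0 fell, against 0.562% and 0.22% of all genes. They were Fkbp5, Tsc22d3, Zbtb16, Lpin1, Sds, Tdo2 and Il1r1. In the 15 fits that each left out a library, Fkbp5, Tsc22d3 and Sds always passed. Zbtb16 passed in 14 of these fits, Lpin1 in 11, Il1r1 in 5 and Tdo2 in 3. The median log2 fold change of the list was 0.54, 31 of its members were above 0, and 7 had GDF15 values wholly above the PairFed values, which 1.31% of all genes had. DESeq2 called 11 of the 34 higher, limma-voom 5, and edgeR with the depth term 1 (Fkbp5), with a median of 0.49; none was called lower in any of these. With a score of immediate-early genes, which was also somewhat higher in GDF15, as a covariate, 5 of the 34 rose and the median was 0.36. The list was written with earlier results of these data known, so its counts are a description.

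Fkbp5, a co-chaperone that binds the glucocorticoid receptor complex and is among its most responsive targets, was at 84.2, 109.8, 64.2, 69.5 and 97.9 CPM in GDF15 1 to 5. In PairFed 1 to 5 it was at 31.7, 32.6, 26.9, 41.7 and 31.3 CPM, and in Vehicle at 18.9 to 29.7 CPM. Every GDF15 library was above every PairFed and Vehicle library, and the lowest GDF15 value lay well above the highest PairFed value. The log2 fold change was 1.37 ± 0.16 SE, adjusted p = 0.000652. With the depth term it was 1.49 (adjusted p = 0.042), and the gene passed without each of the 15 libraries.

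Tsc22d3 encodes the glucocorticoid-induced leucine zipper, an anti-inflammatory protein. Its values were 185, 130.2, 108, 100.3 and 116 CPM in GDF15 and 59.7, 41.1, 49.6, 48.7 and 54.7 CPM in PairFed. The groups did not overlap, and GDF15 1 was the highest library. The log2 fold change was 1.33 ± 0.15 SE, adjusted p = 0.000491, with 1.24 and an adjusted p of 0.052 under the depth term. Vehicle livers lay between, at 63 to 83.5 CPM: the mean was 76.6 ± 8.07 CPM in Vehicle, 128 ± 33.6 in GDF15 and 50.7 ± 6.98 in PairFed (SD, n = 5 each). The difference of PairFed from Vehicle was not past the threshold (log2 fold change -0.60, adjusted p = 0.0792).

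The sequence upstream of these genes was read because both are textbook targets of a factor that binds DNA at a short known motif. Of the 7 list members that rose, 5 had an entry in the RefSeq promoter table of GRCm38.p6 (Lpin1, Fkbp5, Tsc22d3, Il1r1 and Tdo2). The windows of 3 genes that lie before the outermost annotated start are given below, 250 bases each, 5′ to 3′ on the strand of the gene. Capitals mark the half-site of the glucocorticoid receptor, AGAACA or TGTTCT on the other strand, and in Fkbp5, which has no half-site there, the E-box CACGTG, a motif bound by clock factors among others.
Fkbp5, chr17:28486150-28486399, minus strand: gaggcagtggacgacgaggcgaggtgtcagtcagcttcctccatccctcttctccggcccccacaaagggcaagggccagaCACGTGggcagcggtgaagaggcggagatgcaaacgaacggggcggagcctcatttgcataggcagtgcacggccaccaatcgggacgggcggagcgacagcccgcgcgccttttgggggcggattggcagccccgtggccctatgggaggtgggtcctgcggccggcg
Tsc22d3, chrX:140600523-140600772, minus strand: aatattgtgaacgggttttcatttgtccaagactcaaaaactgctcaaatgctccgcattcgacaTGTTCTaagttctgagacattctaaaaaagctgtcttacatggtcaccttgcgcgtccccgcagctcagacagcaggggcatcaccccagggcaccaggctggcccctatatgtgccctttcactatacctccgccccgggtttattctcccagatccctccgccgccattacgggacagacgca
Tdo2, chr3:81975729-81975978, minus strand: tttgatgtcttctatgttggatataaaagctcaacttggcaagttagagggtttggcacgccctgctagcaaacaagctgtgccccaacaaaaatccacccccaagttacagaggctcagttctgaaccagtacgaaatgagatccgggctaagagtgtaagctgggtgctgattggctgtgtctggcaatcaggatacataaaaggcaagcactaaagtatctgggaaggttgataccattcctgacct
The half-site of Tsc22d3 begins 185 bases before the start of the gene, and the E-box of Fkbp5 169 bases before its start. The window of Tdo2 holds no half-site. Over any annotated start, 3 of the 5 genes (Lpin1, Tsc22d3 and Il1r1) had a half-site in the 250 bases before it.

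Among all 69 genes that rose, 56 had a window and 13 of these (23.2%) held the half-site on either strand, compared with 1297 of 9847 tested genes with a window (13.2%) and 5284 of all 32851 windows (16.1%). Of the 27 genes that fell, 25 had a window and 2 (8.0%) held it. A gene can have several windows, and a gene was counted when any of them held the motif. A full palindrome, AGAACA followed after 3 bases of any kind by TGTTCT, was in 3 windows of the table and in none of the genes that rose or fell. CACGTG was in the windows of 9 of the 56 genes that rose (16.1%), 3 of the 25 that fell and 974 of the 9847 tested (9.89%). These shares are a description, and a motif this short in so near a window says nothing of binding.

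Zbtb16, a transcription factor also known as PLZF and induced by glucocorticoids in many cell types, stood at 90.5, 107, 86.3, 105 and 102 CPM in GDF15 and at 47.5, 34, 22.2, 47.2 and 28.1 CPM in PairFed. No values overlapped (log2 fold change 1.46 ± 0.24 SE, adjusted p = 0.0178). Lpin1, which dephosphorylates phosphatidate on the way to triglyceride and also acts as a nuclear coactivator, had the largest rise of the list. It was at 737, 976, 507, 717 and 639 CPM in GDF15 and at 403, 345, 159, 190.1 and 186 CPM in PairFed, and PairFed 1 and 2 were higher than the other 3 PairFed libraries. Its log2 fold change was 1.48 ± 0.26 SE, adjusted p = 0.0253, and 1.05 with the depth term (adjusted p = 0.38).

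Receptors for inflammatory signals were among the genes that rose. Il1r1, the signalling receptor for interleukin-1, was at 60.4, 68.4, 37.9, 38.5 and 78.7 CPM in GDF15 and 23.2, 30.3, 21.9, 28.5 and 27.9 CPM in PairFed. No values overlapped, and GDF15 3 and 4 lay nearest to PairFed (log2 fold change 1.10 ± 0.22 SE, adjusted p = 0.0378). Il6ra, the interleukin-6 receptor, through which hepatocytes start the acute-phase response, was at 106, 98.2, 66.2, 84.8 and 99 CPM in GDF15 and 49.8, 51.4, 45.1, 41.8 and 43.2 CPM in PairFed. The groups were apart (log2 fold change 0.97 ± 0.17 SE, adjusted p = 0.019). These were the only 2 of 30 acute-phase genes that passed the threshold in either direction, and the list's median was 0.08. The secreted acute-phase protein Saa1 was at 208 to 366 CPM in GDF15 and 142 to 236 CPM in PairFed and was not past it (adjusted p = 0.241).

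Not every glucocorticoid target passed. Per1, a clock gene with a classical receptor site, was at 43.8 to 101 CPM in GDF15 and 51.8 to 81.8 CPM in PairFed (log2 fold change 0.22 ± 0.23 SE, adjusted p = 0.749), while Vehicle was lower, at 17 to 39.3 CPM. Tat, tyrosine aminotransferase, had a log2 fold change of 0.88 ± 0.31 (adjusted p = 0.241), with values of 3754, 3941, 1494, 2388 and 2506 CPM in GDF15 and 1961, 2312, 852, 1172 and 1356 CPM in PairFed. The libraries of either group differed from each other by more than 2-fold, and the groups overlapped. Mt2, a metallothionein, was at 171, 211, 30.3, 166 and 133 CPM in GDF15, with GDF15 3 far below the other 4 libraries, and at 61.2 to 98.2 CPM in PairFed (adjusted p = 0.407). The transcription factor Cebpb gave 0.80 ± 0.23 (adjusted p = 0.15).

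Of 19 genes of the receptor and of steroid handling, 1 rose and 0 fell, and the median was 0.13. Fkbp4, the co-chaperone that helps the receptor reach the nucleus, was at 168 to 221 CPM in GDF15 and 127 to 166 CPM in PairFed (log2 fold change 0.41 ± 0.09 SE, adjusted p = 0.0387). Neither the receptor itself nor the enzyme that reactivates its ligand was past the threshold. Nr3c1, the receptor, was at 58.6 to 78.8 CPM in GDF15 and 57.2 to 67.2 CPM in PairFed (log2 fold change 0.13 ± 0.08 SE, adjusted p = 0.517). Hsd11b1, which turns inactive 11-dehydrocorticosterone into corticosterone, gave 0.13 ± 0.13 (adjusted p = 0.704).

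**Figure D2:**
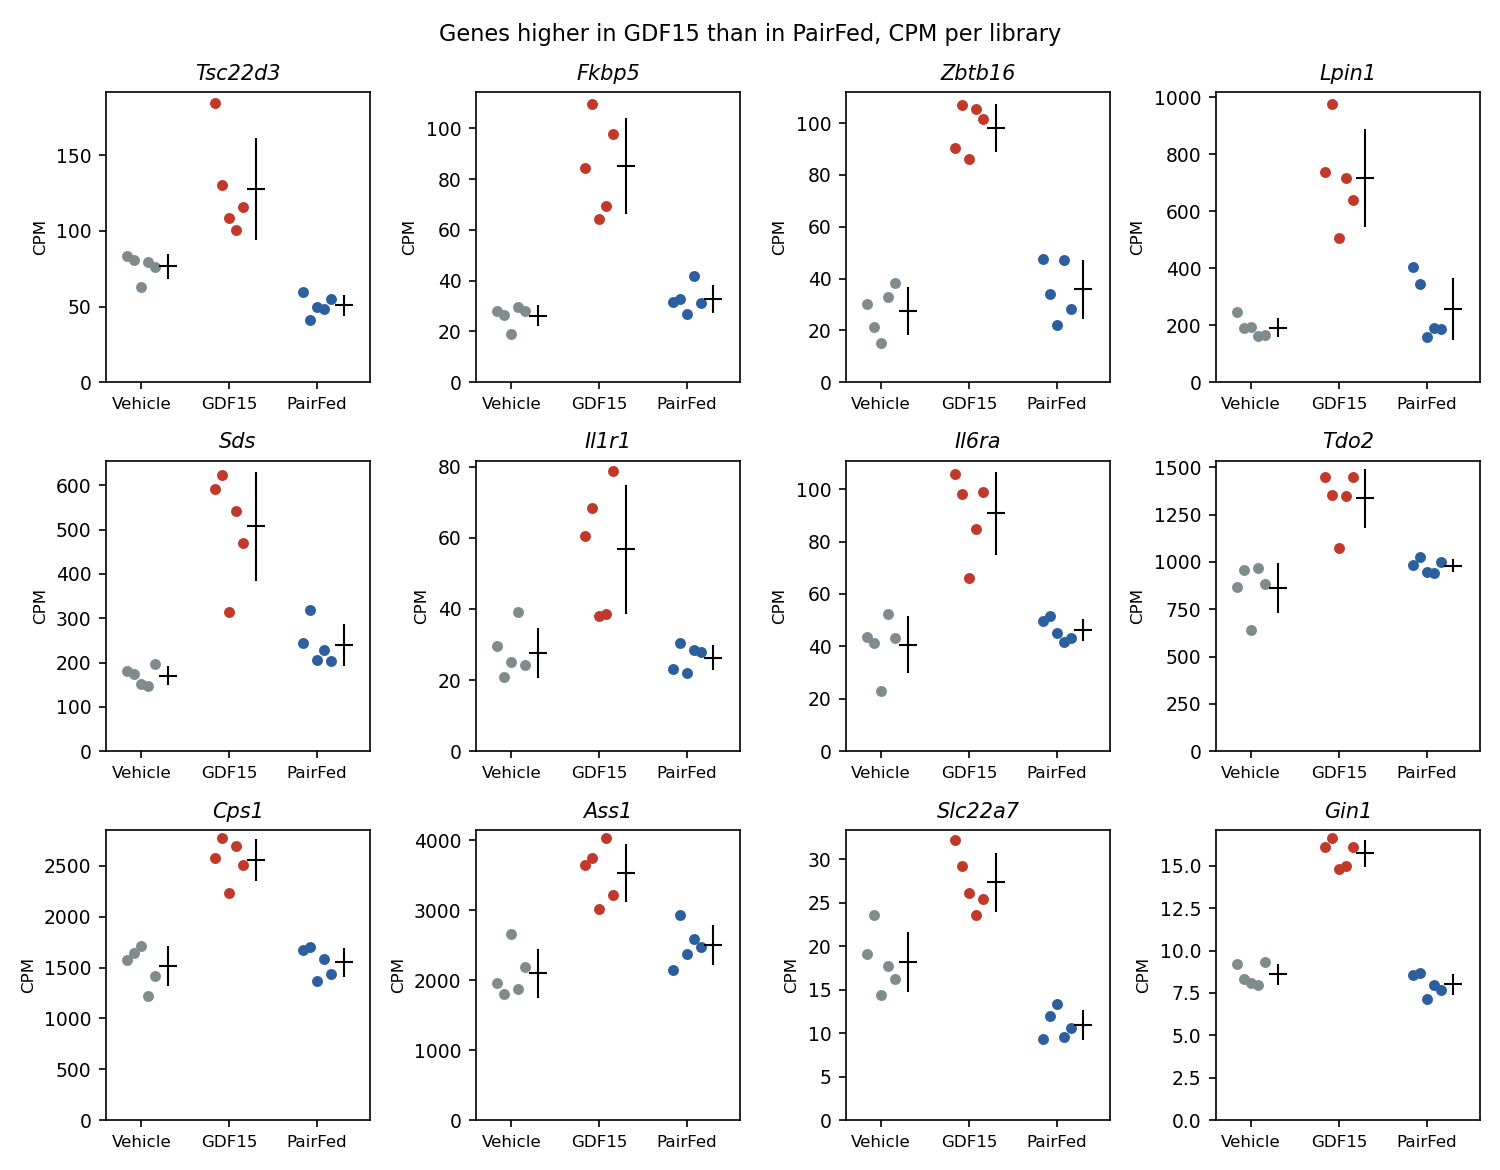
Each panel shows 1 gene that rose, with CPM on the vertical axis from 0, a point for each of the 5 libraries of Vehicle, GDF15 and PairFed, and a bar beside them for the mean and SD. In all panels but that of Sds the lowest GDF15 point lies above the highest PairFed point; in Slc22a7 and Tsc22d3 all PairFed points lie below all Vehicle points.

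Amino acid breakdown and the urea cycle, by which the liver turns the nitrogen of amino acids into urea, rose in part. Of 42 genes, 7 rose and 0 fell, against 0.562% and 0.22% of all tested genes. In this list 39 were above 0 and the median was 0.25. DESeq2 called 12 of the 42 higher, limma-voom 5, and edgeR with the depth term 1 (Prodh), with a median of 0.27, and none was called lower. When the immediate-early score was added to the model, 2 of the 42 rose, with a median of 0.20. The 7 covered several steps, and not all were equally firm. In the 15 fits that each left out a library, Cps1 and Sds always passed. Ass1, Hgd and Slc25a15 passed in 6 of these fits each, Prodh in 5 and Tdo2 in 3. Cps1, which makes carbamoyl phosphate in the first and rate-limiting step of the urea cycle, was at 2579, 2775, 2238, 2693 and 2512 CPM in GDF15 and 1669, 1699, 1365, 1581 and 1437 CPM in PairFed. The lowest GDF15 library was far above the highest PairFed library, and Vehicle, at 1224 to 1713 CPM, was level with PairFed. The log2 fold change was 0.72 ± 0.09 SE, adjusted p = 0.000652 and with the depth term 0.52 (adjusted p = 0.13).

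Ass1, argininosuccinate synthase, a later enzyme of the cycle, was at 3645, 3751, 3025, 4035 and 3219.5 CPM in GDF15 and 2152, 2932, 2374, 2586 and 2470.4 CPM in PairFed, with GDF15 3 only just above PairFed 2 (log2 fold change 0.50 ± 0.11 SE, adjusted p = 0.0443). Slc25a15, the carrier that brings ornithine into mitochondria, was at 294 to 419 CPM in GDF15 and 218 to 289 CPM in PairFed, adjacent ranges (log2 fold change 0.48 ± 0.11 SE, adjusted p = 0.0479).

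Sds, serine dehydratase, which turns serine into pyruvate, had the largest change of the list. Its values were 591, 624, 314, 541 and 469.7 CPM in GDF15 and 245, 319, 206, 229 and 204 CPM in PairFed. GDF15 3 lay below PairFed 2, and the other 4 GDF15 libraries lay above all PairFed libraries (log2 fold change 1.08 ± 0.17 SE, adjusted p = 0.00977). The gene passed without each of the 15 libraries, but not with the depth term (0.96, adjusted p = 0.3).

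Prodh, proline dehydrogenase, was at 215, 264, 191, 216 and 197 CPM in GDF15, 127, 155, 176, 151 and 139 CPM in PairFed and 100.2 to 156 CPM in Vehicle. All GDF15 values were above all others (log2 fold change 0.53 ± 0.12 SE, adjusted p = 0.0468), and the difference was larger with the depth term (0.86, adjusted p = 0.0084). That term rests largely on PairFed 1, here the lowest PairFed library, and Vehicle 4, here the highest Vehicle library at 156 CPM. Tdo2, tryptophan dioxygenase, was at 1072 to 1450.5 CPM in GDF15 and 943 to 1027 CPM in PairFed (log2 fold change 0.45 ± 0.10 SE, adjusted p = 0.0474). Hgd, homogentisate dioxygenase of tyrosine breakdown, was at 553 to 787 CPM and 415 to 575 CPM, ranges that overlapped (log2 fold change 0.45 ± 0.10 SE, adjusted p = 0.0448). Of 14 amino acid transporters tested, 0 passed in either direction with edgeR, DESeq2 or limma-voom, with 2 at an unadjusted p below 0.05, both higher.

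Glucose metabolism changed at single steps. Of 20 genes of gluconeogenesis and its regulators, 2 rose and 0 fell, against 0.562% and 0.22% of all tested genes. The list's median was 0.12. Slc37a4, which carries glucose 6-phosphate into the endoplasmic reticulum for the last step of glucose release, was at 153 to 217 CPM in GDF15 and 125 to 148 CPM in PairFed (log2 fold change 0.38 ± 0.08 SE, adjusted p = 0.0448). Ppargc1a, a coactivator of fasting genes, was at 33.5, 29.5, 17.8, 20.0 and 22.3 CPM in GDF15 and 15.7, 15.8, 11.7, 14.4 and 9.74 CPM in PairFed (log2 fold change 0.86 ± 0.17 SE, adjusted p = 0.0253). Both groups of values were apart. Pck1, the textbook control enzyme of the pathway, was at 2344 to 5924 CPM in GDF15, 2477 to 4342 CPM in PairFed and 731 to 2763 CPM in Vehicle (GDF15 against PairFed: log2 fold change 0.44 ± 0.33 SE, adjusted p = 0.613).

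The 25 genes of the insulin and growth hormone response had a median of 0.03, with 14 above 0 and 11 below. Foxo1, a transcription factor that insulin keeps out of the nucleus, gave 0.58 ± 0.15 (adjusted p = 0.0985). None of 20 fasting-responsive secreted factors passed with edgeR, DESeq2 or limma-voom (4 higher and 1 lower at an unadjusted p below 0.05).

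The insulin-regulated glucose transporter Slc2a4, known mainly from muscle and fat, had the largest rise of all called genes, at a low level. It was at 5.62, 9.29, 3.31, 4.8 and 3.68 CPM in GDF15 and at 2.76, 1.83, 1.69, 2 and 1.26 CPM in PairFed. The groups did not overlap, although GDF15 3 and PairFed 1 were close (log2 fold change 1.49 ± 0.32 SE, adjusted p = 0.0363). Markers of fat and muscle in the table were few, as given above, and Adipoq, Plin1, Ckm and Acta1 were not in it.

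Lipid genes gave few calls. Of 29 lipogenesis genes, 1 rose (Lpin1) and 0 fell, and 26 were above 0. At an unadjusted p below 0.05, 8 were higher and 1 lower, against 7.01% and 6.31% of all tested genes. DESeq2 called 2 of the 29 higher and 0 lower. The list's median was 0.27, but -0.03 with the depth term. Thrsp, a lipogenic protein that follows carbohydrate intake, was at 1229, 1278, 701, 960.4 and 584 CPM in GDF15 and 669.9, 494, 349, 272 and 282 CPM in PairFed, overlapping ranges (log2 fold change 1.20 ± 0.32 SE, adjusted p = 0.117). Of 37 genes of fatty acid oxidation and ketogenesis, 1 rose (Plin5) and 0 fell, with a median of -0.05. Of the 37, 12 were above 0 and 25 below. At an unadjusted p below 0.05, 2 were higher and 6 lower, against 7.01% and 6.31% of all tested genes. DESeq2 called 1 of the 37 higher and 1 lower. Vnn1, the lower gene with the smallest edgeR p, gave -0.36 ± 0.09 (adjusted p = 0.066). Plin5 encodes a coat protein of lipid droplets in cells that burn fat. It was at 74.2, 93.7, 79.6, 92.1 and 89.1 CPM in GDF15 and 45, 37, 50.2, 57.6 and 61.5 CPM in PairFed, with no overlap (log2 fold change 0.77 ± 0.13 SE, adjusted p = 0.00977), and passed without each of the 15 libraries. No gene of 25 in cholesterol synthesis and uptake passed with edgeR, DESeq2 or limma-voom, and 1 was lower at an unadjusted p below 0.05.

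Bile acid synthesis and transport held 2 rises and 0 falls among 24 genes, against 0.562% and 0.22% of all tested genes. The list's median was 0.06, with 16 members above 0 and 8 below. At an unadjusted p below 0.05, 5 were higher and 2 lower. DESeq2 called 4 of the 24 higher and 1 lower. Cyp27a1, the mitochondrial sterol hydroxylase of the acidic pathway, was at 559.8, 592, 485, 473 and 499.7 CPM in GDF15 and 417, 367, 343, 295 and 374 CPM in PairFed (log2 fold change 0.54 ± 0.09 SE, adjusted p = 0.0114). Cyp2c70, which makes the muricholic acids of rodents, was at 443, 368, 340.5, 304 and 277 CPM and 254, 236, 127, 166 and 180.2 CPM (log2 fold change 0.85 ± 0.17 SE, adjusted p = 0.0387). No value overlapped in either gene. Outside the list, Cyp39a1, which hydroxylates 24-hydroxycholesterol, also rose (log2 fold change 0.52 ± 0.11 SE, adjusted p = 0.0344); it was picked after its values were seen. Abcb11, the bile salt export pump, was at 517 to 582 CPM in GDF15 and 338 to 498 CPM in PairFed without passing the threshold (adjusted p = 0.08).

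Among 33 genes of drug metabolism, 1 rose and 0 fell: Sult1d1, a sulfotransferase, at 126 to 186 CPM in GDF15 and 92.2 to 125 CPM in PairFed (log2 fold change 0.56 ± 0.12 SE, adjusted p = 0.0452). Of 25 genes of endoplasmic reticulum stress, 1 rose and 0 fell. Herpud1, a membrane protein of the pathway that degrades misfolded proteins, was at 559.5 to 693 CPM in GDF15 and 344 to 449 CPM in PairFed (log2 fold change 0.62 ± 0.12 SE, adjusted p = 0.0253). The list's median was 0.22 and went to 0.00 with the depth term. In autophagy 1 of 25 rose, the initiating kinase Ulk1 (log2 fold change 0.52 ± 0.10 SE, adjusted p = 0.0178), and 0 fell.

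Slc22a7, an organic anion transporter of the hepatocyte membrane known as OAT2, had the second smallest p of all genes. Its values were 32.2, 29.2, 26.1, 23.6 and 25.4 CPM in GDF15, 9.29, 11.9, 13.3, 9.52 and 10.6 CPM in PairFed and 19.1, 23.5, 14.3, 17.7 and 16.3 CPM in Vehicle. The 3 groups were in the order PairFed, Vehicle, GDF15 with no overlap between any 2 of them, although GDF15 4 and Vehicle 2 were nearly equal. GDF15 was above PairFed (log2 fold change 1.31 ± 0.13 SE, adjusted p = 4.33e-05) and above Vehicle (adjusted p = 0.018), and PairFed was below Vehicle (log2 fold change -0.73, adjusted p = 0.0327). The change held with the depth term (1.39, adjusted p = 0.0084) and without each of the 15 libraries.

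Car14, a membrane carbonic anhydrase, and Shank2, a scaffold protein, were likewise below Vehicle in PairFed. Car14 was at 36.2 to 42.6 CPM in GDF15, 20.6 to 29.5 CPM in PairFed and 34.2 to 42.6 CPM in Vehicle (GDF15 against PairFed: log2 fold change 0.63 ± 0.09 SE, adjusted p = 0.00224; PairFed against Vehicle: adjusted p = 0.025). Shank2 was at 34.4 to 43.9, 23.5 to 32.9 and 31.9 to 42.8 CPM (log2 fold change 0.49 ± 0.10 SE, adjusted p = 0.0293; PairFed against Vehicle: adjusted p = 0.0478). In both genes the GDF15 and Vehicle ranges overlapped, and the PairFed mean was the lowest of the 3. Both were picked after their values were seen.

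Gin1, which carries an integrase domain from an old retrotransposon, had the smallest p of all genes and values that hardly varied within a group. They were 16.1, 16.6, 14.8, 15 and 16.1 CPM in GDF15, 8.57, 8.66, 7.15, 7.98 and 7.7 CPM in PairFed and 7.98 to 9.31 CPM in Vehicle (log2 fold change 0.97 ± 0.09 SE, adjusted p = 2.13e-05; with the depth term 0.87, adjusted p = 0.0084). Its neighbour Ppip5k2, a kinase that makes inositol pyrophosphates, was at 52.3, 59.9, 50.5, 48.8 and 57.2 CPM in GDF15 and 39.1, 33.6, 40.4, 41.4 and 35.2 CPM in PairFed (log2 fold change 0.50 ± 0.08 SE, adjusted p = 0.00344). On chromosome 1 of GRCm38.p6 Ppip5k2 runs from 97706043 to 97770411 and Gin1 from 97770172 to 97793710, so their annotations overlap by 240 bases at their starts, on opposite strands. The strand setting of the counting is not known from the labels, so the counts of either gene may hold reads of the other. Both genes passed without each of the 15 libraries.

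A further pair of called genes lay within 100000 bases of each other, Mast3 and Arrdc2 on chromosome 8, 30080 bases apart with no tested gene between them. Arrdc2, an arrestin-domain protein, was at 34.8, 35.6, 28.2, 20.3 and 33.4 CPM in GDF15 and 12.5, 11.3, 18.2, 16.4 and 12.3 CPM in PairFed (log2 fold change 1.10 ± 0.17 SE, adjusted p = 0.00886). Mast3, a serine/threonine kinase, was at 75.9, 96.9, 76.6, 86.6 and 77.5 CPM and 55.5, 45.5, 49.3, 46 and 46 CPM (log2 fold change 0.77 ± 0.11 SE, adjusted p = 0.00309). Neither gene had overlapping groups, and both passed with the depth term (adjusted p = 0.042 and 0.042).

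Other rises past 2-fold or close to it were in genes of varied function. Tcim, a small regulator of transcription, was at 85, 64.7, 40.0, 44.1 and 63 CPM in GDF15 and 28.9, 20.0, 22.4, 21.6 and 33.7 CPM in PairFed (log2 fold change 1.23 ± 0.20 SE, adjusted p = 0.0142). Arhgef37, a guanine nucleotide exchange factor, was at 27.7, 37.6, 20.3, 24.9 and 29 CPM and 15.6, 13.7, 9.56, 10.6 and 11 CPM (log2 fold change 1.21 ± 0.16 SE, adjusted p = 0.00126). In both genes all GDF15 values were above all PairFed values. Adamts6, a secreted metalloprotease, rose at low counts, from 2.18 CPM in PairFed to 5.42 CPM in GDF15 (log2 fold change 1.31 ± 0.26 SE, adjusted p = 0.0257). Shld2, a subunit of the shieldin complex of DNA repair, was at 41.9 to 53.7 CPM in GDF15 and 19.1 to 31.4 CPM in PairFed (log2 fold change 0.88 ± 0.10 SE, adjusted p = 0.000418). Chd9, a chromatin remodeller, was at 302 to 638 CPM and 202 to 269 CPM (log2 fold change 0.97 ± 0.19 SE, adjusted p = 0.0378). Dio1, the liver deiodinase that activates thyroid hormone, rose by less (log2 fold change 0.45 ± 0.10 SE, adjusted p = 0.0468). Gin1, Ppip5k2, Mast3, Shld2, Chd9 and Dio1 were singled out after their values were seen.

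Of the 27 genes that fell, 4 reached 2-fold. The largest fall was that of Bhlhe41, a repressor of the circadian clock also known as DEC2. It was at 1.53, 1.84, 1.46, 2.16 and 1.68 CPM in GDF15 and at 2.96, 8.9, 8.84, 6.98 and 5.03 CPM in PairFed, where library 1, the shallowest of its group, was lowest. The groups did not overlap (log2 fold change -1.91 ± 0.39 SE, adjusted p = 0.0344). With the depth term the value was -0.62 (adjusted p = 0.62): the deeper Vehicle 4 was at 5.35 CPM, and the other 4 Vehicle libraries were at 0.832 to 2.21 CPM. It was the only one of 24 clock genes past the threshold in either direction.

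Cntnap1, a membrane protein best known from the junctions of myelinated axons, was at 10.7, 9.75, 11, 11.8 and 16.8 CPM in GDF15 and 23.7, 22.7, 37.4, 34.9 and 29.1 CPM in PairFed, with no overlap (log2 fold change -1.30 ± 0.22 SE, adjusted p = 0.0161). Ppp1r16b, a regulatory subunit of protein phosphatase 1, was at 0.383 to 1.61 CPM in GDF15 and 1.93 to 2.78 CPM in PairFed (log2 fold change -1.38 ± 0.29 SE, adjusted p = 0.0344). H1f2, a linker histone, had the smallest p of the genes that fell. It was at 75, 63.8, 73, 63.3 and 58.4 CPM in GDF15 and 84, 114, 95.1, 112 and 128 CPM in PairFed. Vehicle was at 77.8 to 96.8 CPM, so that all GDF15 values were below both other groups. The log2 fold change was -0.68 ± 0.10 SE against PairFed (adjusted p = 0.00398). Against Vehicle it was -0.38 and not past the threshold (adjusted p = 0.0549).

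Gm3776, a predicted glutathione transferase gene, was at 6.31 to 14.1 CPM in GDF15 and 16.9 to 30.6 CPM in PairFed (log2 fold change -1.17 ± 0.25 SE, adjusted p = 0.0476). It is a close relative of Gsta1, which gave -1.08 ± 0.32 (adjusted p = 0.155), and the authors' counting may have split reads between such copies, so the value of either is uncertain.

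Several genes that fell against PairFed were higher in PairFed than in Vehicle, with GDF15 near Vehicle. Rnf43, an E3 ligase that removes Frizzled receptors and so restrains Wnt signalling, was at 30.3, 25.3, 21.2, 28.1 and 27.2 CPM in GDF15, 34.7, 34.4, 37.1, 43.2 and 38.6 CPM in PairFed and 22.6 to 29.8 CPM in Vehicle. The PairFed values were above all others (GDF15 against PairFed: log2 fold change -0.51 ± 0.10 SE, adjusted p = 0.0178; PairFed against Vehicle: adjusted p = 0.0327). Gpc1, a cell-surface heparan sulfate proteoglycan, was at 46.4, 50.6, 44.5, 53.4 and 58.9 CPM in GDF15, 66.7, 81.9, 73.3, 66.8 and 76.7 CPM in PairFed and 47.3 to 64.5 CPM in Vehicle (log2 fold change -0.53 ± 0.09 SE, adjusted p = 0.0135; PairFed against Vehicle: adjusted p = 0.039). Here too the PairFed libraries were the highest. The flagellin receptor Tlr5 (mean 12.5, 18.6 and 13 CPM in GDF15, PairFed and Vehicle) and Egln3, an oxygen-sensing prolyl hydroxylase (mean 18.2, 24.4 and 18.5 CPM), had the same order, with adjusted p = 0.019 and 0.0253 against PairFed and 0.0457 and 0.0478 for PairFed against Vehicle. These 4 genes were grouped after their values were seen.

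The other named falls were between 0.2 and 0.6 on the log2 scale. Nceh1, a neutral cholesterol ester hydrolase, was at 32.6 to 49.6 CPM in GDF15 and 49.9 to 63.6 CPM in PairFed (log2 fold change -0.53 ± 0.11 SE, adjusted p = 0.0348). Bcar1, an adaptor of focal adhesions, was at 29.8 to 45.4 CPM and 49.8 to 62.9 CPM (log2 fold change -0.51 ± 0.10 SE, adjusted p = 0.0253). Rarres1, a retinoid-responsive gene, was at 49.6 to 57.7 CPM and 67.5 to 79.7 CPM (log2 fold change -0.46 ± 0.08 SE, adjusted p = 0.0148) and passed without each of the 15 libraries. The nucleoporin Aaas gave -0.47 ± 0.10 SE, adjusted p = 0.0452.

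**Figure D3:**
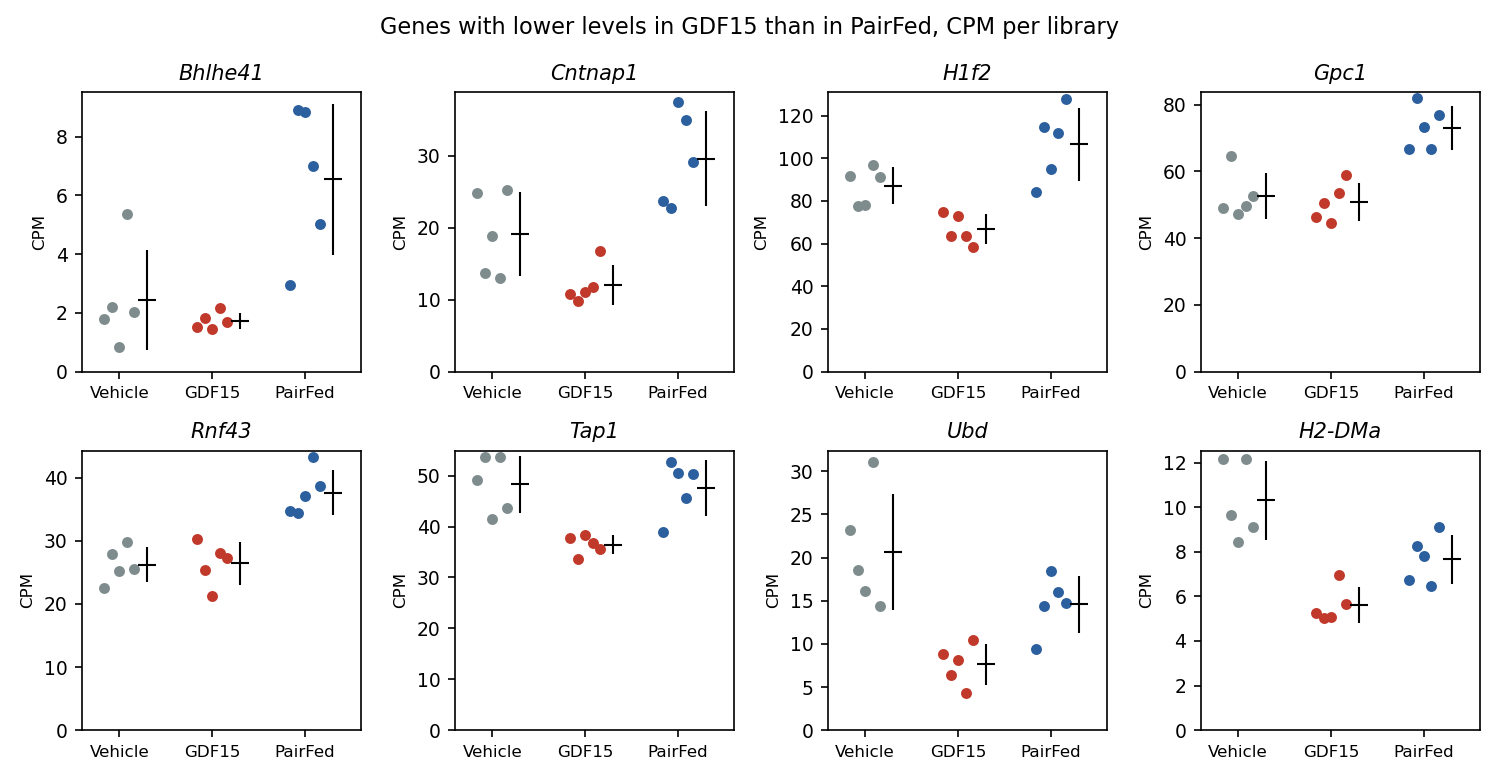
CPM from 0 on the vertical axis for 8 genes, with a point for each of 5 libraries per group and a bar for the mean and SD. Bhlhe41, Cntnap1, H1f2, Gpc1, Rnf43 and Tap1 are lower in GDF15 than in PairFed past the threshold with no overlap of points, while Ubd and H2-DMa overlap between these groups and are not past it.

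Few genes of inflammation were called. None of 15 chemokines and cytokines, 38 interferon-induced genes, 20 targets of NF-kB (a master regulator of inflammation) or 10 genes of antigen presentation on MHC class II passed edgeR's threshold in either direction. Nor did limma-voom call any, and DESeq2 called 1, an NF-kB target, lower. At an unadjusted p below 0.05 there were, in the same order, 0, 2, 2 and 0 higher and 3, 5, 3 and 3 lower genes. Of all tested genes 7.01% were higher and 6.31% lower at that level, and 0.782% passed edgeR's threshold. The medians were -0.17, -0.12, -0.10 and -0.24, and that of MHC class II became 0.15 with the depth term. The chemokine Cxcl10 was at 3.32, 2.87, 5.46, 3.14 and 3.89 CPM in GDF15 and 6.23, 5.48, 4.26, 5.07 and 6.36 CPM in PairFed, where GDF15 3 lay among the PairFed values (log2 fold change -0.54 ± 0.18 SE, adjusted p = 0.187). Vehicle, at 7.06 to 9.95 CPM, was above both groups.

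Of 18 genes of MHC class I and the immunoproteasome, 1 fell and 0 rose. Tap1, which pumps peptides to class I molecules, was at 37.8, 33.6, 38.4, 36.9 and 35.6 CPM in GDF15 and 39, 52.6, 50.5, 45.6 and 50.3 CPM in PairFed. The lowest PairFed library was 1, the shallowest of its group, and lay just above the highest GDF15 value (log2 fold change -0.39 ± 0.09 SE, adjusted p = 0.0479; with the depth term -0.16, adjusted p = 0.68). Its partner Tap2 gave -0.26 ± 0.07 (adjusted p = 0.115) and the immunoproteasome subunit Psmb9 -0.52 ± 0.16 (adjusted p = 0.15). Ubd, a ubiquitin-like protein induced by inflammatory cytokines, was at 4.31 to 10.4 CPM in GDF15 and 9.39 to 18.4 CPM in PairFed, overlapping ranges (adjusted p = 0.116). H2-DMa, which loads peptides on class II, was at 5.05 to 6.96 CPM and 6.45 to 9.11 CPM (adjusted p = 0.172). The class II invariant chain Cd74 was at 100.3 to 202 CPM and 160.2 to 236 CPM (log2 fold change -0.17 ± 0.17 SE, adjusted p = 0.724). Under the depth term it was 0.092. Outside the lists, Parp4 fell by a small amount (-0.43 ± 0.08 SE, adjusted p = 0.0159). So did the interferon-linked Trim25 (-0.37 ± 0.08 SE, adjusted p = 0.0468) and Parp12 (-0.26 ± 0.06 SE, adjusted p = 0.0479). Trim25 and Parp12 were picked after their values were seen.

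Markers of other liver cells were not past the threshold in either direction with edgeR, DESeq2 or limma-voom. This held for 19 markers of resident Kupffer cells, 19 of recruited monocytes, 20 genes of lipid-associated macrophages, 37 of stellate cells and fibrosis, 25 of liver endothelium, 8 of T and NK cells, 5 of B and plasma cells, 8 of dendritic cells and 3 of neutrophils. At an unadjusted p below 0.05 the numbers were small in each list, at most 1 higher and 2 lower. Of all tested genes 7.01% were higher and 6.31% lower at that level. Endothelial markers had a median of -0.30, with 22 of 25 below 0, and summed to 250.7 to 659 CPM in GDF15 and 420.4 to 707 CPM in PairFed. With the depth term their median was -0.76. Kupffer cell markers summed to 557 to 998 CPM in GDF15 and 749 to 873 CPM in PairFed. The part of these cells in the differences given above was not tested. The Kupffer marker Clec4f gave 0.19 ± 0.18 (adjusted p = 0.702), the macrophage gene Trem2 0.11 ± 0.19 (adjusted p = 0.849), Tgfb1, a driver of fibrosis, -0.34 ± 0.13 (adjusted p = 0.248), and the endothelial scavenger receptor Stab2 -0.36 ± 0.13 (adjusted p = 0.241). T cell markers Cd3e, Cd3d and Cd8b1 were too low to be tested.

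The remaining lists gave few or no calls. Of 22 heat shock genes 1 rose (Fkbp4, given above) and 0 fell, and of 30 hepatocyte genes 1 rose (Cps1) and 0 fell, with medians of 0.08 and 0.12. DESeq2 called 1 heat shock gene higher and 1 lower. With edgeR, 6 heat shock genes were higher and 1 lower at an unadjusted p below 0.05. The lower one, Hspa1b, gave -0.86 ± 0.24 (adjusted p = 0.121). None of 19 antioxidant genes, 20 genes of iron handling, 24 of the cell cycle, 17 bile duct and progenitor markers, 5 blood cell markers and 3 markers of neighbouring tissues passed with edgeR or limma-voom. In the same order, 0, 2, 2, 1, 0 and 0 were higher and 1, 0, 1, 2, 0 and 0 lower at an unadjusted p below 0.05. DESeq2 called 1 iron gene higher and 2 bile duct and progenitor markers lower.

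**Figure D4:**
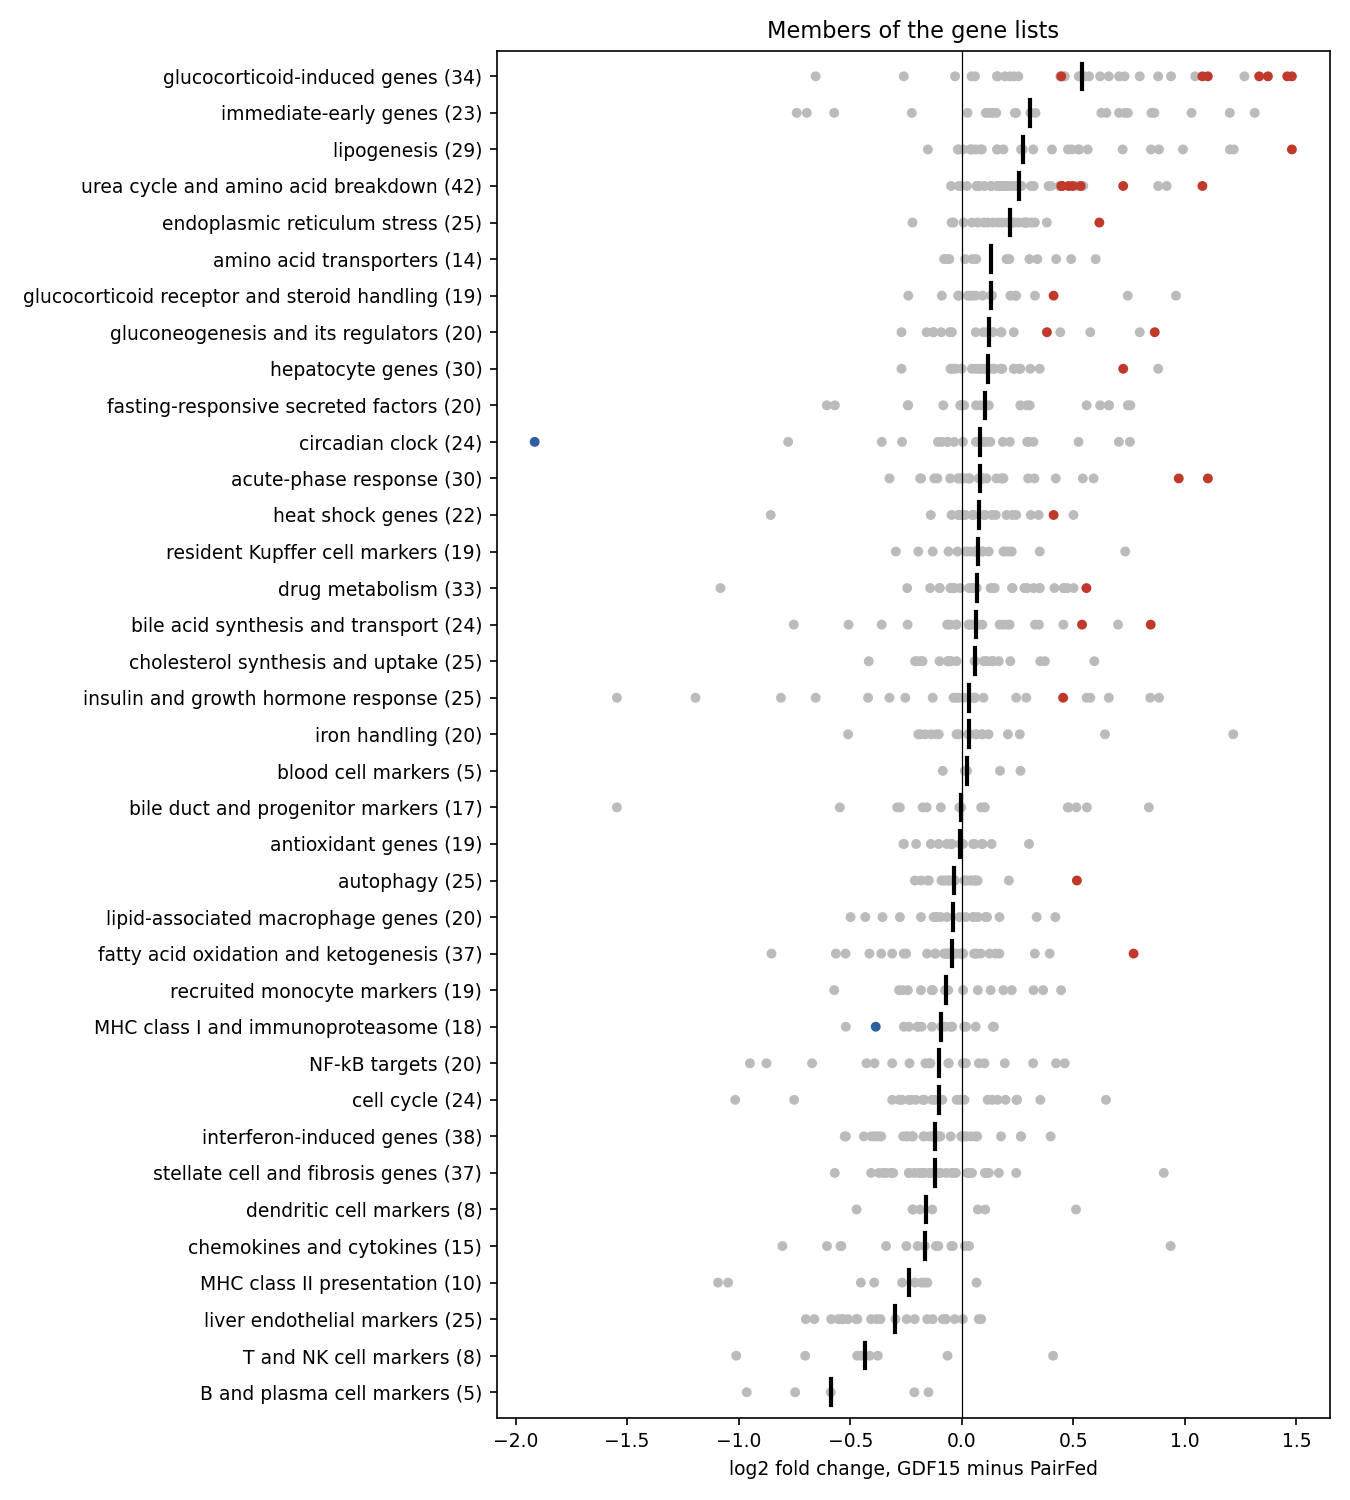
Each row is a gene list with the number of its tested members in parentheses, each point the log2 fold change of 1 member (GDF15 minus PairFed), and the black bar the median. Red points rose and blue points fell past the threshold. The glucocorticoid-induced list has the highest median (0.54) and, with the urea cycle and amino acid list, the most red points (7 each). Sds and Tdo2 are red points of both lists.

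Immediate-early genes, the first to be transcribed after a stimulus or the handling of an animal, were somewhat higher in GDF15. Of 23 tested, 0 passed with edgeR or limma-voom and 1 with DESeq2. At an unadjusted p below 0.05, 6 were higher and 0 lower, against 7.01% and 6.31% of all tested genes. The median of the 23 was 0.31. The mean log2 CPM of 21 of them was 4.74, 4.87, 3.67, 4.26 and 4.56 in GDF15 1 to 5 and 4.64, 4.14, 3.79, 4.02 and 4.29 in PairFed 1 to 5. GDF15 3 was the lowest of all 10, and the groups overlapped. Egr1 was at 293, 122, 50.7, 158 and 163 CPM in GDF15 and 104, 36.4, 79.9, 43 and 53.3 CPM in PairFed (log2 fold change 1.31 ± 0.53 SE, adjusted p = 0.309), Fos had a log2 fold change of 1.20 ± 0.55 (adjusted p = 0.369), and the immediate-early phosphatase Dusp1, which is also a glucocorticoid target, 0.70 ± 0.21 (adjusted p = 0.163). GDF15 3 was also the lowest GDF15 library in Fkbp5, Lpin1, Sds, Il1r1, Tat, Mt2, Tdo2 and Cps1. With this score as a covariate 59 genes passed (40 higher, 19 lower), 52 of them among the 96. Fkbp5, Tsc22d3, Zbtb16, Lpin1, Sds and Cps1 passed. Il1r1, Tdo2, Ass1, Hgd, Prodh and Slc25a15 did not (adjusted p = 0.0748 to 0.109). The part of handling or acute stress in these differences was not tested.

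A score of clock phase, the mean log2 CPM of 6 genes that peak together minus that of 3 genes of opposite phase, was 2.04 to 3.98 in GDF15 and 2.17 to 4.64 in PairFed. The ranges overlapped. With the clock score as a covariate 146 genes passed (108 higher, 38 lower), 91 of them among the 96.

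**Figure D5:**
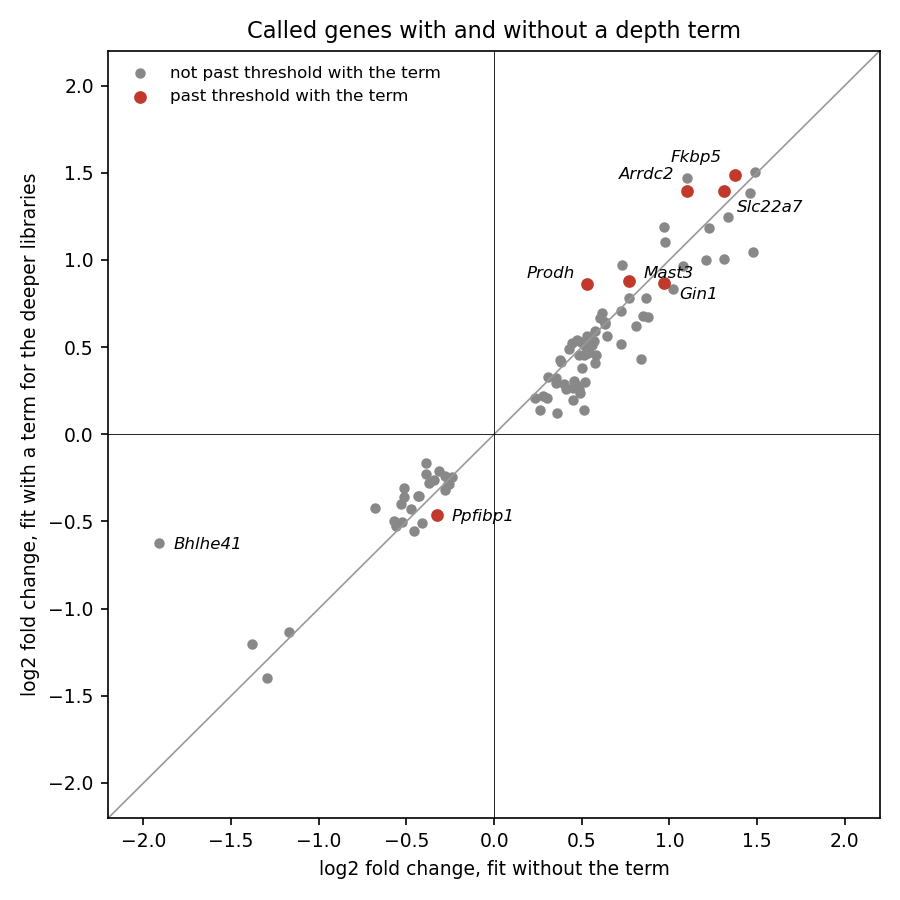
Each point is 1 of the 96 called genes, with its log2 fold change on the horizontal axis and that from the fit with a term for the 5 deeper libraries on the vertical axis; the diagonal marks equal values. All 96 points keep their sign, the 7 red ones pass the threshold with the term, and Bhlhe41 lies farthest from the diagonal, at -1.91 without and -0.62 with it.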

How the data were processed

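Total RNA of 15 mouse livers was purified with TRIzol and RNeasy and used for directional libraries, per the labels' protocols. Salmon, DESeq2 and mm10 are named in the submitters' processing notes, with no versions or roles. The table deposited by the authors lists 15302 gene symbols with estimated counts, given as whole numbers without scaling to depth. Transcript set and strand setting: not given in the sources used here. Columns were assigned to groups by name and could not be tied to single sample labels.

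From these, edgeR 4.0.16 in R 4.3.3 was run here: filterByExpr (count 10, total count 15) left 12274 genes with 99.9% of the counts, TMM scaled the libraries, and a robust quasi-likelihood fit of all 15 libraries gave the contrast GDF15 minus PairFed, with Benjamini-Hochberg adjustment over all tested genes and a threshold of 0.05. SEs were derived from the F statistic. CPM are counts relative to the TMM-scaled total. The common biological coefficient of variation was 13.3%. Total counts ran from 8551557 to 12994187 per library, and the share of low genes that could be tested depends on them. The procedure was tested on simulated data.

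39 gene lists were written by hand, and 37 with 5 or more tested members are drawn. The comparison and lists were chosen with earlier results of these data known, so lists are described by counts and medians and not tested. Genes named were up to 12 with the largest rise and fall among called genes whose groups did not overlap and whose log2 CPM averaged 1 or more, up to 3 of each list by p, and genes of interest; others are said to be chosen after their values were seen, as were Prodh, Hgd, Tdo2, Slc25a15 and Cebpb. Positions and promoters are from RefSeq tables of GRCm38.p6, which matched 15289 of 15302 symbols. Alternatives were other scalings, filters and tools (DESeq2 1.42.0, limma-voom 3.58.1), a fit of both groups alone, thinned counts, terms for depth, immediate-early genes or clock phase, a minimum change, and leaving out each library. One item is not reported here.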

Additional observations from a re-analysis of the deposited data

Results flagged for a closer look

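In groups of 5 libraries, a single value was checked for standing far from the other 4 (a gap to its nearest neighbour above 0.71 of the group's range). This was done for 92 genes, the total counts and the immediate-early score, each in GDF15 and in PairFed, 188 groups in all. 7 were found, where chance gives about 1 in 20 groups. The total count of PairFed 1, 10133289, lay below those of the other 4 PairFed libraries (12137462 to 12933324), and it is the only PairFed library as shallow as the GDF15 libraries. Of the 6 genes, 3 stood apart in GDF15 1: the liver's own Gdf15 at 258.7 CPM (others 91.7 to 134), Cd74 at 100.3 CPM (others 174 to 202) and Parp12 at 49.7 CPM (others 44.6 to 45.7). Tdo2 was at 1072 CPM in GDF15 3 (others 1348 to 1451). Cntnap1 was at 16.8 CPM in GDF15 5 (others 9.75 to 11.8), the library nearest to PairFed. Bcar1 was at 29.8 CPM in GDF15 2 (others 41.4 to 45.4), so the fall of this gene was largest there.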

How the results depend on the processing

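All 96 genes kept their direction under every alternative in which they were tested (92 of them under the filter of 10 CPM in 5 libraries). DESeq2's Wald test called 245 genes, 145 higher and 100 lower, so that 59.2% were higher against 71.9% with edgeR, and it held all 96; limma-voom called 75 with 17 lower, and shared 74. DESeq2's size factors, upper-quartile factors, no filter, the stricter filter, both groups alone and thinned counts called 76 to 119 genes. The fit of the GDF15 and PairFed libraries alone, without Vehicle, called 76 (51 higher, 25 lower), and 61 of the 96 were among them. The depth term, which rests largely on PairFed 1 and Vehicle 4, left 9 genes (8 higher, 1 lower). The shallower libraries gave 0 with edgeR (0 higher, 0 lower, 406 at an unadjusted p below 0.05), in a fit that rests on 1 PairFed library and says nothing about stability. The immediate-early score left 59 (40 higher), the clock score gave 146 (108 higher), and a minimum change of 1 log2 unit left 17 (13 higher, 4 lower). Leaving out 1 library gave 21 to 171 genes, 18 to 106 higher and 3 to 65 lower: 21 without PairFed 4, 26 without PairFed 5, 30 without GDF15 1, 32 without GDF15 2, 47 without PairFed 3, 52 without Vehicle 5, 57 without PairFed 2, 64 without GDF15 4 and 171 without PairFed 1. For genes not past the threshold, the log2 fold change turned sign with the depth term in Cd74 (0.092), Clec4f (-0.054) and Nudt3 (0.0032), in the shallower libraries in Gdf15 (-0.13), Hsd11b1 (-0.054), Cd74 (0.069), Trem2 (-0.033) and Nudt3 (0.061), and with the immediate-early score in Per1 (-0.030). The cause of these moves was not tested. No paired analysis was possible because the columns carry no pairing and cannot be tied to animals. Low genes such as Slc2a4 and Bhlhe41 rest on few counts.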

Other observations

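Enzymes of inositol pyrophosphates, signalling molecules linked to phosphate and energy balance, stood on both sides of the comparison; they were picked after their values were seen. Ip6k2, a kinase that adds the first pyrophosphate, was at 80.0, 91.5, 70.7, 65.1 and 73.5 CPM in GDF15 and 59.3, 37.6, 36.4, 35.3 and 48.7 CPM in PairFed (log2 fold change 0.81 ± 0.14 SE, adjusted p = 0.0161). Ppip5k2, the next kinase, rose as given above. Nudt4, a hydrolase of these molecules, was at 288, 297, 281, 283 and 301 CPM in GDF15 and 341, 339.8, 309, 357 and 364 CPM in PairFed and fell (log2 fold change -0.24 ± 0.05 SE, adjusted p = 0.0491); it passed the threshold in only 1 of the 15 fits that each left out a library. In all 3 genes the groups did not overlap. The paralogues Ip6k1 (0.03 ± 0.06), Ppip5k1 (-0.10 ± 0.12) and Nudt3 (-0.08 ± 0.06) did not pass (adjusted p = 0.874, 0.775 and 0.641).

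Some genes of RNA processing rose, again picked after their values were seen. No list of such genes was made, so how many were tested, or fell, is not given. Smg1, a kinase of nonsense-mediated decay, was at 57, 72.3, 55.3, 57.9 and 61.5 CPM in GDF15, 44.6, 40.6, 43.3, 42.7 and 39.4 CPM in PairFed and 37.2 to 47.5 CPM in Vehicle (log2 fold change 0.53 ± 0.08 SE, adjusted p = 0.00309). Srsf4, a splicing factor, was at 58.7 to 90.2 CPM in GDF15 and 53.5 to 58.3 CPM in PairFed (log2 fold change 0.43 ± 0.09 SE, adjusted p = 0.0452). In Rsrp1, Ccnl2, a cyclin linked to splicing, and Nxf1, the export receptor of mRNA, the Vehicle means (448, 112 and 66.1 CPM) were nearer to GDF15 (513, 113 and 67.1 CPM) than to PairFed (344, 91.1 and 55.2 CPM). Their log2 fold changes against PairFed were 0.57 ± 0.11, 0.31 ± 0.07 and 0.28 ± 0.06, with adjusted p = 0.0253, 0.0491 and 0.0452.

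Single genes with large differences that did not pass the threshold were Hamp2, a hepcidin gene, at 201, 211, 129, 141 and 82.3 CPM in GDF15 and 44.3, 92.5, 46.6, 78.7 and 66.1 CPM in PairFed (log2 fold change 1.22 ± 0.34 SE, adjusted p = 0.145), and Onecut1, a transcription factor of hepatocytes and bile ducts, at 3.33 to 6.54 CPM in GDF15 and 5.61, 26.5, 13.3, 14.3 and 5.18 CPM in PairFed (log2 fold change -1.55 ± 0.42 SE, adjusted p = 0.124). In both the groups overlapped, and in Onecut1 the PairFed libraries differed among themselves by more than 4-fold.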
